A study of Mus musculus with 4 samples.

Results

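The mitochondrial respiratory chain was followed in 4 populations of cultured mouse CD4 T cells through the nuclear genes that encode its subunits and some of its assembly factors. The genes were chosen by symbol alone: every gene of the array annotation whose symbol begins with Ndufa, Ndufb, Ndufc, Ndufs, Ndufv or Uqcr, or with Cox4 to Cox8, together with Sdha, Sdhb, Sdhc, Sdhd and Cycs. This gave 74 of the 18193 genes named on the array, each read from the probe set with the highest mean log2 signal over the 4 arrays. Of these, 71 lay above the floor of 12.1, which is the median over all probe sets but the controls, on at least 1 array. By role they comprise 6 core and 28 accessory subunits of complex I, 8 complex I assembly factors (the Ndufaf genes, which share the prefix), 4 subunits of complex II, 8 of complex III, cytochrome c, 12 genes of complex IV and 7 isoforms of complex IV subunits that are known from muscle, lung or testis.

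All cells were taken from C57BL/6 mice aged 8 to 10 weeks (spleen and lymph nodes), were cultured, and were then sorted on IL-17 (GFP) and on Foxp3 (APC). The exFoxp3Th17 population arose under Th17 conditions from CD4 T cells that were Foxp3+, and was sorted as IL-17+ Foxp3-. The Th17 population arose from naive CD4 T cells under Th17 conditions and was sorted through the same gate. The Treg population came from Foxp3+ CD4 T cells kept with IL-2 and was sorted as IL-17- Foxp3+, and the Th0 population came from naive CD4 T cells under Th0 conditions and was sorted as IL-17- Foxp3-. Each population was measured on 1 Affymetrix array, and the labels used here do not say how many mice contributed to it. No spread between samples can be given, so each value below sets 1 array against another and no test was possible. Calls rest on size alone: at least 2-fold between the arrays, with the larger signal above the floor. In sorted bulk populations fewer cells of a type and less RNA per cell cannot be told apart, and the arrays share nearly the same trimmed mean, so a difference in total RNA would not be seen.

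The respiratory chain passes electrons from NADH (complex I) or succinate (complex II) through ubiquinone to complex III, and from there by way of cytochrome c to complex IV, which reduces oxygen. Complexes I, III and IV pump protons, and the gradient drives ATP synthase. Most subunits are encoded in the nucleus and imported, while a small set is encoded in mitochondrial DNA. Activated T cells raise glycolysis and also depend on respiration, and regulatory T cells are known for relying on oxidative metabolism more than effector T cells do.

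As a check of the labels, Foxp3 had a signal of 584.9 on the Treg array and lay below the floor on the other arrays. Il17a reached the floor on no array, with 9.4 in exFoxp3Th17 and 9.8 in Th17, the populations sorted as IL-17+. It therefore gives no check of the IL-17 gate. Of 6 CD4 T cell markers with a probe set, all 6 lay above the floor on every array. Their summed signal was 12936 in exFoxp3Th17, 9597 in Th17, 8211 in Treg and 10995 in Th0. Markers of B cells (3 genes), myeloid cells (4), NK cells (1) and erythroid cells (2) summed to at most 59.9, the B cell value on the Treg array, where it came almost wholly from Cd79b (55.6) while Cd79a and Ms4a1 lay below the floor on all arrays. The CD8 markers (2 genes) summed to 66.0 to 97.0. The part of these cells in the differences was not tested. Control probes at the 3' and 5' ends gave a ratio of 0.907 to 1.06 for Gapdh, while Actb ranged from 1.12 to 1.31.

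The respiratory chain genes differed little between any 2 of the arrays. In exFoxp3Th17 against Th17 none was called higher and 1, Cox7a1, was called lower, which is 1.41% of 71, where 14.8% of the 11769 genes above the floor were called (7.48% higher and 7.27% lower). In Th17 against Th0, 1 was called higher and none lower, against 15.1% of all genes called in either direction (8.22% higher and 6.88% lower). In exFoxp3Th17 against Treg, 1 was called higher and 2 lower (4.23%), against 21.2% of all genes (11.3% higher and 9.94% lower). In Treg against Th0 none of the 71 was called, against 10.5% of all genes (5.56% higher and 4.95% lower). Over all 4 arrays the highest signal was less than 1.5 times the lowest for 50 of the 71 genes (70.4%), against 36.1% of all genes.

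These genes are bright, with a median over genes of the mean signal of 1217 against 117.1 for all genes above the floor, and bright genes were called less often. Among the 2547 genes with a mean log2 signal of at least 32 times the floor, 10.4% were called in exFoxp3Th17 against Th17, 8.4% in Th17 against Th0, 16.5% in exFoxp3Th17 against Treg and 5.81% in Treg against Th0. Of the 55 respiratory chain genes in that range, none was called in the first, second and last of these comparisons. In exFoxp3Th17 against Treg 1 was called higher and 1 lower (3.64%). That range begins at a signal of 387.3, below the median of 1217, so it does not match the respiratory chain genes in brightness. The part of brightness in their few calls was not tested.

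**Figure D1:**
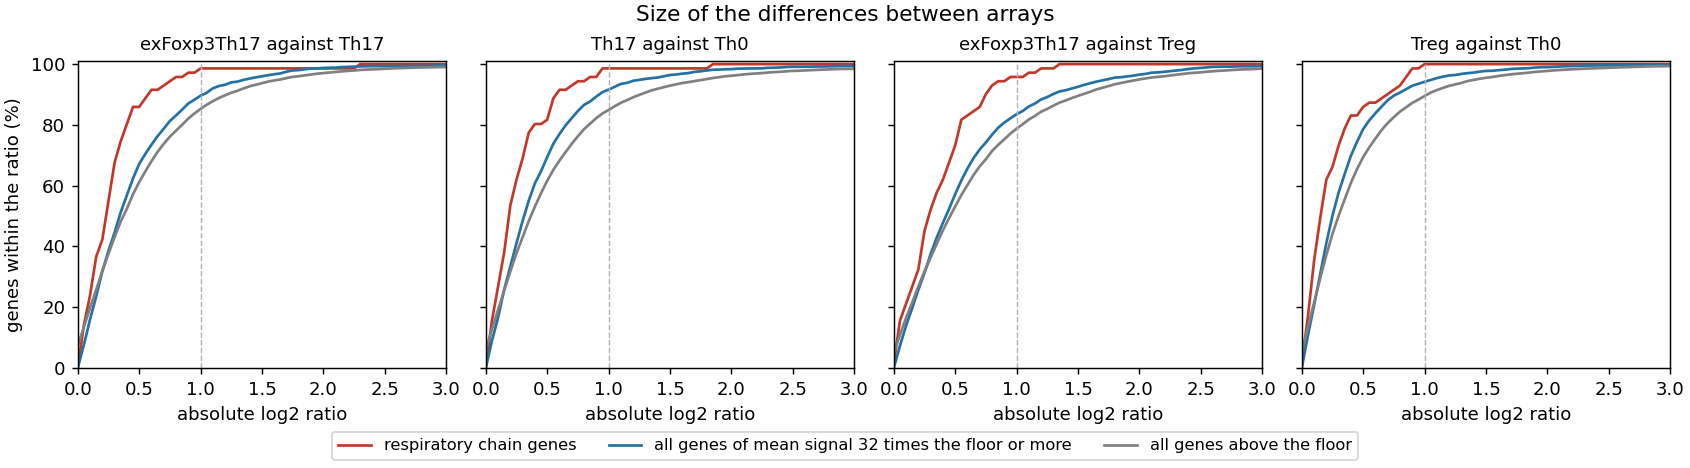
Percentage of genes (vertical axis) whose absolute log2 ratio between 2 arrays is at or below the value on the horizontal axis, in 4 comparisons, for the 71 respiratory chain genes (red), all 2547 genes with a mean log2 signal of at least 32 times the floor (blue) and all 11769 genes above the floor (grey). The dashed line marks a 2-fold difference; in every panel the red curve lies above the other curves at that line.

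The comparison of exFoxp3Th17 with Th17 sets cells of Foxp3+ origin against cells of naive origin after the same culture condition and sort. The median log2 ratio was -0.08 over the respiratory chain genes and 0.03 over all genes, with 26 of the 71 above 0 and 45 below. At 1.5-fold or more 1 gene was higher, Ndufa6, and 6 were lower, against 18.1% and 14.8% of all genes. By complex the medians were -0.11 for the complex I core, -0.13 for its accessory subunits, 0.08 for its assembly factors, -0.12 for complex II, -0.20 for complex III and 0.04 for complex IV.

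Cytochrome c carried the largest difference among the 55 bright respiratory chain genes of this comparison. Cycs, which encodes the soluble carrier between complexes III and IV and is released from mitochondria to start caspase activation in apoptosis, had a signal of 1835 in exFoxp3Th17, 3656 in Th17, 4093 in Treg and 2513 in Th0. The exFoxp3Th17 array was the lowest and the Treg array the highest. The log2 ratio was -0.99 in exFoxp3Th17 against Th17, just inside 2-fold, and -1.16 against Treg, a 2.23-fold difference that was called. With the probe sets of the gene averaged the value against Treg was -0.93 and the call was lost. Its 2 other probe sets above the floor lay at -1.08 and -1.10 against Th17, both past 2-fold, and at -1.45 and -1.10 against Treg. In Treg against Th0 the probe set used for the gene lay at 0.70 and the others at 1.15 and 0.92, and in Th17 against Th0 they lay at 0.54, 0.78 and 0.92. All 3 probe sets therefore placed exFoxp3Th17 lowest and Th0 next.

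The promoter regions of 4 genes are shown for reference: Cycs, Ndufa6 and Cox7a1, which were called, and Cox7a2l, which was not called in any comparison. Each is the 250 bases upstream of the RefSeq start, 5' to 3' on the strand of the gene (build GRCm38.p6). Cycs lies on the minus strand at chr6:50566570-50566819, Ndufa6 on the minus strand at chr15:82354292-82354541, Cox7a2l on the minus strand at chr17:83514334-83514583 and Cox7a1 on the plus strand at chr7:30183921-30184170. Capitals mark matches, on either strand, to the letters GCGCATGC, a shortened form of the binding motif of nuclear respiratory factor NRF-1, and to TGACGTCA, the cAMP response element.
Cycs: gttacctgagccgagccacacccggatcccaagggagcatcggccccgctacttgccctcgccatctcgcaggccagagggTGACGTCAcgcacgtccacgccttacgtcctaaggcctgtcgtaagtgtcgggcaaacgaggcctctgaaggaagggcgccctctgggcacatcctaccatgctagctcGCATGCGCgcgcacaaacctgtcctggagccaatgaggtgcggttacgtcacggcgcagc
Ndufa6: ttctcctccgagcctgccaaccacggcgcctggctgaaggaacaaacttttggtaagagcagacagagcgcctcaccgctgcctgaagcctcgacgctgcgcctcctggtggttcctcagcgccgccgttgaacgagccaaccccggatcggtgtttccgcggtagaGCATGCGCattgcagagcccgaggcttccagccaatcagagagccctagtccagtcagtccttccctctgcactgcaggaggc
Cox7a2l: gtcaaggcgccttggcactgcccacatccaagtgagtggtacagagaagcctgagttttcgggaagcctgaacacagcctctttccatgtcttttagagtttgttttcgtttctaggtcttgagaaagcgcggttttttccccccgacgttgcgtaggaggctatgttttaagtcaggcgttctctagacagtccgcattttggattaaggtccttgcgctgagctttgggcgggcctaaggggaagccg
Cox7a1: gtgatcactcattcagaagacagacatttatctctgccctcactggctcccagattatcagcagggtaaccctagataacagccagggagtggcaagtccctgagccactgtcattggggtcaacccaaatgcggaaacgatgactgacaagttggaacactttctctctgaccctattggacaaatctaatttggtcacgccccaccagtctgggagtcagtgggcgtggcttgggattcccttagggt

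In the Cycs window the TGACGTCA match begins 169 bases and the NRF-1 match 60 bases before the start, and in Ndufa6 the NRF-1 match begins 83 bases before it. Of the 60 respiratory chain genes with a window in the table, 6 (10%) held GCGCATGC, namely Cox6a1, Cycs, Ndufa6, Ndufa8, Ndufaf4 and Sdhb, against 2.56% of all 27025 genes of the table. The full NRF-1 core motif, which contains the shorter letters, was in 2 (3.33%), Cox6a1 and Ndufaf4, against 0.877% of all genes. The GABP motif CCGGAAGT was in 2 (3.33%), Uqcr11 and Uqcrh, against 3.23% of all genes. TGACGTCA was in 4 (6.67%), Cycs, Ndufa10, Ndufb2 and Uqcrfs1, against 1.77%. Cycs and Ndufa6 hold the same shortened NRF-1 letters, while Cycs was lowest and Ndufa6 highest on the exFoxp3Th17 array. Whether NRF-1 acts on either gene in these cells was not tested.

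**Figure D2:**
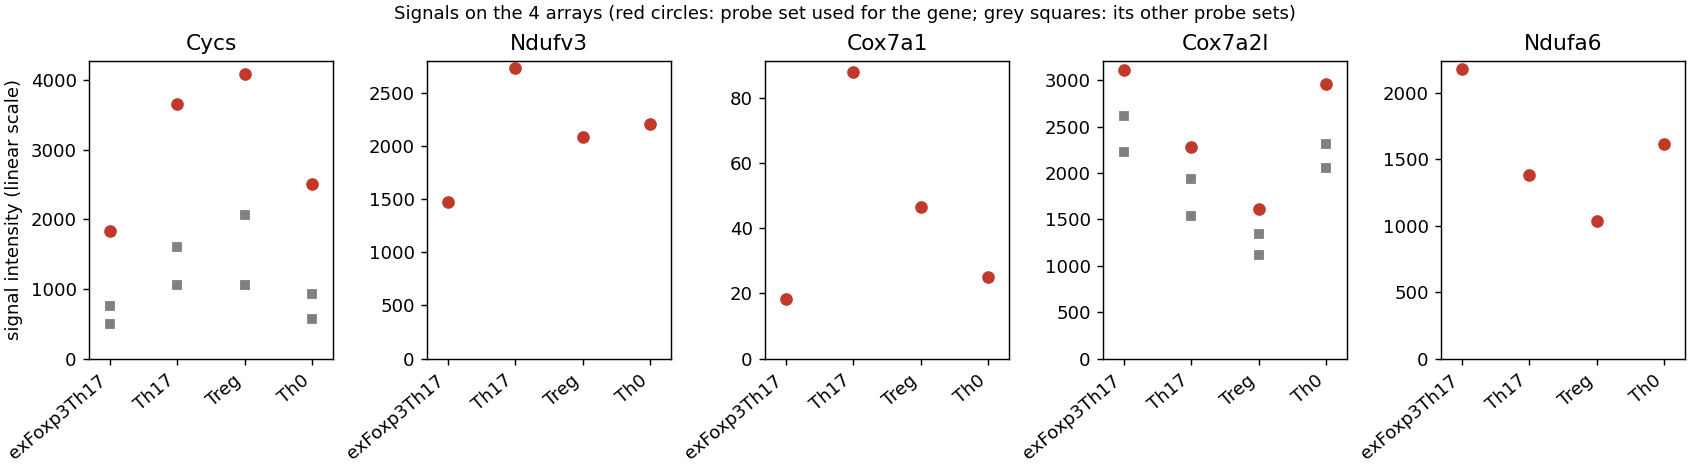
Signal intensity on a linear scale (vertical axis) on each of the 4 arrays for 5 respiratory chain genes. Red circles are the probe set used for the gene and grey squares its other probe sets above the floor; Cycs is lowest on the exFoxp3Th17 array by all 3 probe sets, and Cox7a2l is lowest on the Treg array by all 3.

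The core of complex I, which holds the flavin and the iron-sulfur clusters, was nearly level across the arrays. Ndufs1, its largest subunit, had signals of 386.4 in exFoxp3Th17, 449.4 in Th17, 431.6 in Treg and 393.6 in Th0. Ndufv2, which carries an iron-sulfur cluster of the NADH-oxidising module, had 2019 in exFoxp3Th17, 1821 in Th17, 1825 in Treg and 1791 in Th0. The widest spread in the core was 1.44-fold, for Ndufs7, with 715.6 in exFoxp3Th17, 786.3 in Th17, 857.4 in Treg and 1034 in Th0. None of the 6 core genes reached 1.5-fold in any of the 4 comparisons.

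Among the accessory subunits of complex I, which surround the core and stabilise it, a few genes departed from the others in opposite directions. Ndufv3, a small subunit of the NADH-oxidising module, had 1472 in exFoxp3Th17, 2741 in Th17, 2090 in Treg and 2212 in Th0, and it was lower in exFoxp3Th17 than in Th17 by 0.90 on the log2 scale, with the Th17 array highest. Ndufa6, an LYR-motif protein that binds the mitochondrial acyl carrier protein, had 2180.3 in exFoxp3Th17, 1381 in Th17, 1037 in Treg and 1612 in Th0. Ndufa6 was highest in exFoxp3Th17 and lowest in Treg, with log2 ratios of 0.66 against Th17 and 1.07 against Treg (2.10-fold, called). With equal medians of the arrays the value against Treg was 0.97 and the call was lost. Neither gene has another single-gene probe set here. Ndufab1, the acyl carrier protein itself, had 767.1 in exFoxp3Th17, 1111 in Th17, 1055 in Treg and 761.3 in Th0 by its brightest probe set. Its next probe set, at 85.9 to 121.7, gave -0.19 in Th17 against Th0 where the brightest gave 0.55, so the direction in that comparison differed between probe sets.

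Several other accessory subunits were lower in exFoxp3Th17 than in Treg by more than 1.5-fold. At that size 10 of the 71 respiratory chain genes were lower, against 18.3% of all genes. Ndufc1 had 1348 in exFoxp3Th17, 1746 in Th17, 2205 in Treg and 2052 in Th0. Ndufb7 had 1144 in exFoxp3Th17, 1376 in Th17, 1869 in Treg and 1985 in Th0. These genes and Ndufa5 (log2 ratio -0.67) and Ndufa12 (-0.63) shared an order with exFoxp3Th17 lowest, Th17 next and the Treg and Th0 arrays above. The other probe sets of Ndufc1 (-0.65), Ndufb7 (-0.75) and Ndufa5 (-0.54) and the 2 bright ones of Ndufa12 (-0.65 and -0.92) gave the same direction against Treg. Ndufb1 had 85.3 in exFoxp3Th17, 110.1 in Th17, 100.2 in Treg and 57.4 in Th0, with a log2 ratio of 0.94 in Th17 against Th0, the nearest to 2-fold without a call there. Ndufb4, whose only single-gene probe set here read 1.5 in exFoxp3Th17, 3.2 in Th17, 2.3 in Treg and 2.9 in Th0, lay below the floor throughout.

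The X-linked members are given beside a difference between the arrays that the labels do not mention. Xist, a noncoding RNA of X inactivation, read 3766 in exFoxp3Th17 and lay below the floor on the other arrays. The Y-linked Eif2s3y had 4.7 in exFoxp3Th17, 875.8 in Th17, 654.5 in Treg and 747.3 in Th0. Kdm5d (2.9) and Uty (0.7), also Y-linked, likewise lay below the floor in exFoxp3Th17 only. This is the pattern of female cells on the exFoxp3Th17 array and of male cells on the others. The labels used here give no sex. Ndufa1, a membrane-arm subunit encoded on the X chromosome, had 3772 in exFoxp3Th17, 3700 in Th17, 3581 in Treg and 3731 in Th0. Its spread over the 4 arrays was 1.05-fold. Ndufb11, also X-linked, had 2761 in exFoxp3Th17, 3031 in Th17, 2692 in Treg and 3437 in Th0. Every comparison with exFoxp3Th17 crosses this difference between the arrays, and its part in the results for autosomal genes was not tested.

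The assembly factors of complex I, which act on the enzyme as it is built and are absent from the finished complex, gave a median of 0.08 in exFoxp3Th17 against Th17 and 0.19 in Treg against Th0. Ndufaf4 had 208.4 in exFoxp3Th17, 350.3 in Th17, 262.1 in Treg and 183.7 in Th0, highest in Th17, with log2 ratios of -0.75 in exFoxp3Th17 against Th17 and 0.93 in Th17 against Th0. Its other probe set gave the same directions at smaller size (-0.26 and 0.33). Ndufaf3 had 321.4 in exFoxp3Th17, 219.7 in Th17, 263.1 in Treg and 214.5 in Th0. Ndufaf8 had 305.5 in exFoxp3Th17, 335.5 in Th17, 445.1 in Treg and 549.7 in Th0. Ndufaf3 was thus highest and Ndufaf8 lowest on the exFoxp3Th17 array, and the dimmest, Ndufaf6, had 74.7 in exFoxp3Th17, 91.9 in Th17, 100.6 in Treg and 103.0 in Th0. No assembly factor was called in any comparison.

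Complex II, which is also the succinate dehydrogenase of the TCA cycle, was the complex with the smallest differences between Th17 and Th0, from -0.13 to 0.01. The flavoprotein Sdha had 1090.1 in exFoxp3Th17, 909.5 in Th17, 796.0 in Treg and 991.9 in Th0, highest in exFoxp3Th17 and lowest in Treg. The membrane anchor Sdhd had 549.4 in exFoxp3Th17, 612.1 in Th17, 830.3 in Treg and 646.0 in Th0, the opposite order between those arrays. Its other probe set gave a log2 ratio of -1.27 in exFoxp3Th17 against Treg, past 2-fold, where the probe set used gave -0.60. The iron-sulfur subunit Sdhb had 1461 in exFoxp3Th17, 1689.7 in Th17, 1861 in Treg and 1743 in Th0, and the anchor Sdhc had 261.3 in exFoxp3Th17, 278.9 in Th17, 280.5 in Treg and 276.1 in Th0. Their log2 ratios in exFoxp3Th17 against Treg were -0.35 and -0.10, and Sdhc was the most level gene of the complex by the probe set used. The other probe set of Sdhc, at 86.1 to 139.0, gave -0.69 in exFoxp3Th17 against Treg and 0.35 in Treg against Th0.

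In complex III, which oxidises ubiquinol, the small subunits Uqcrq and Uqcr11 were lowest in exFoxp3Th17. Uqcrq had 562.7 in exFoxp3Th17, 958.5 in Th17, 968.8 in Treg and 909.7 in Th0, so the 3 other arrays lay close together and the exFoxp3Th17 array apart. Uqcr11 had 635.0 in exFoxp3Th17, 957.2 in Th17, 1053 in Treg and 980.8 in Th0, with the same arrangement. The hinge protein Uqcrh went the other way, with 3663 in exFoxp3Th17, 2935 in Th17, 2531 in Treg and 3176 in Th0, with log2 ratios against Treg of 0.53 by the probe set used and 0.58 by the other. Uqcrb, which lies near the ubiquinone site, was level, with 4689 in exFoxp3Th17, 4811 in Th17, 4974 in Treg and 4685 in Th0. Its other probe set gave -0.37 against Th17 and -0.52 against Treg, so only the brightest was level. Uqcr10, the dimmest of the complex, had 680.8 in exFoxp3Th17, 771.6 in Th17, 890.5 in Treg and 956.1 in Th0. The Rieske iron-sulfur protein Uqcrfs1 had log2 ratios of -0.37 in exFoxp3Th17 against Th17 and -0.32 against Treg.

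Complex IV, cytochrome c oxidase, was close to level in its widely expressed subunits. Cox4i1, a regulatory subunit that binds ATP, had 3993 in exFoxp3Th17, 3447 in Th17, 3365 in Treg and 3946 in Th0. Cox6b1, which faces the intermembrane space, had 3709 in exFoxp3Th17, 3720.4 in Th17, 3792 in Treg and 4231 in Th0. All 11 widely expressed genes above the floor were within 1.5-fold between exFoxp3Th17 and Th17. Cox6a1 and Cox6c were exceptions in their probe sets: the probe sets used gave 0.04 and 0.05 in exFoxp3Th17 against Th17, and their other probe sets -0.72 and -0.53. Cox6a1 had 4567 in exFoxp3Th17, 4437 in Th17, 4486 in Treg and 5232 in Th0 by the probe set used, and 1514 in exFoxp3Th17 and 2485 in Th17 by the other. Cox8a, the widely expressed paralogue of Cox8b and Cox8c, had 1505 in exFoxp3Th17, 1508 in Th17, 1739.6 in Treg and 1753 in Th0.

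Cox7a2l, a gene related to Cox7a2, was lowest on the Treg array and highest on the exFoxp3Th17 array. It had 3107 in exFoxp3Th17, 2277 in Th17, 1613 in Treg and 2963 in Th0. The log2 ratio was 0.95 in exFoxp3Th17 against Treg, the nearest to 2-fold without a call, and its other probe sets gave 0.96 and 1.00. In Treg against Th0 the 3 probe sets lay at -0.88, -0.79 and -0.89. Cox7c had the same order by its brightest probe set, with 104.5 in exFoxp3Th17, 84.6 in Th17, 59.1 in Treg and 95.5 in Th0. Its other probe set, at 15.9 to 31.3, gave 0.72 in exFoxp3Th17 against Treg but 0.25 in Treg against Th0, the opposite direction to -0.69. Cox7a2, the paralogue that serves as the subunit in most tissues, was level between exFoxp3Th17 (3878) and Th17 (3889) and had 4463 in Treg and 4258 in Th0.

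Of the 7 isoforms of restricted expression, Cox7a1 was called in 3 of the 4 comparisons. Cox7a1, the heart and skeletal muscle isoform of Cox7a, had 18.4 in exFoxp3Th17, 87.9 in Th17, 46.7 in Treg and 25.2 in Th0, all above the floor. It was 4.78-fold lower in exFoxp3Th17 than in Th17, 3.49-fold higher in Th17 than in Th0 and 2.54-fold lower in exFoxp3Th17 than in Treg. It has a single probe set, and its signals lie near the floor. The call against Treg was lost with the floor raised to 2 times its value (-0.95) and with the floor as a pseudocount (-0.95). With 4 times the floor all 3 calls were lost. Cox4i2, an isoform known from lung, had 8.4 in exFoxp3Th17, 14.5 in Th17, 11.2 in Treg and 10.3 in Th0. Cox6a2, of muscle, had 7.1 in exFoxp3Th17, 12.5 in Th17, 20.7 in Treg and 9.0 in Th0. These lie around the floor, and so do Cox6b2, of testis, with 8.1 in exFoxp3Th17, 14.1 in Th17, 13.8 in Treg and 14.1 in Th0, and Cox8b, of muscle, with 14.0 in exFoxp3Th17, 10.6 in Th17, 2.3 in Treg and 21.4 in Th0. Cox8c, a testis isoform, had 31.0 in exFoxp3Th17, 30.4 in Th17, 24.2 in Treg and 47.8 in Th0, and its log2 ratio of -0.98 in Treg against Th0 was the nearest to 2-fold there. Cox7b2, another testis isoform, and Ndufa4l2, a paralogue of Ndufa4 known as a target of hypoxia-inducible factor, lay below the floor on all 4 arrays. Ndufa4, now counted as a complex IV subunit, had 1579 in exFoxp3Th17, 1321 in Th17, 2127 in Treg and 1914 in Th0.

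**Figure D3:**
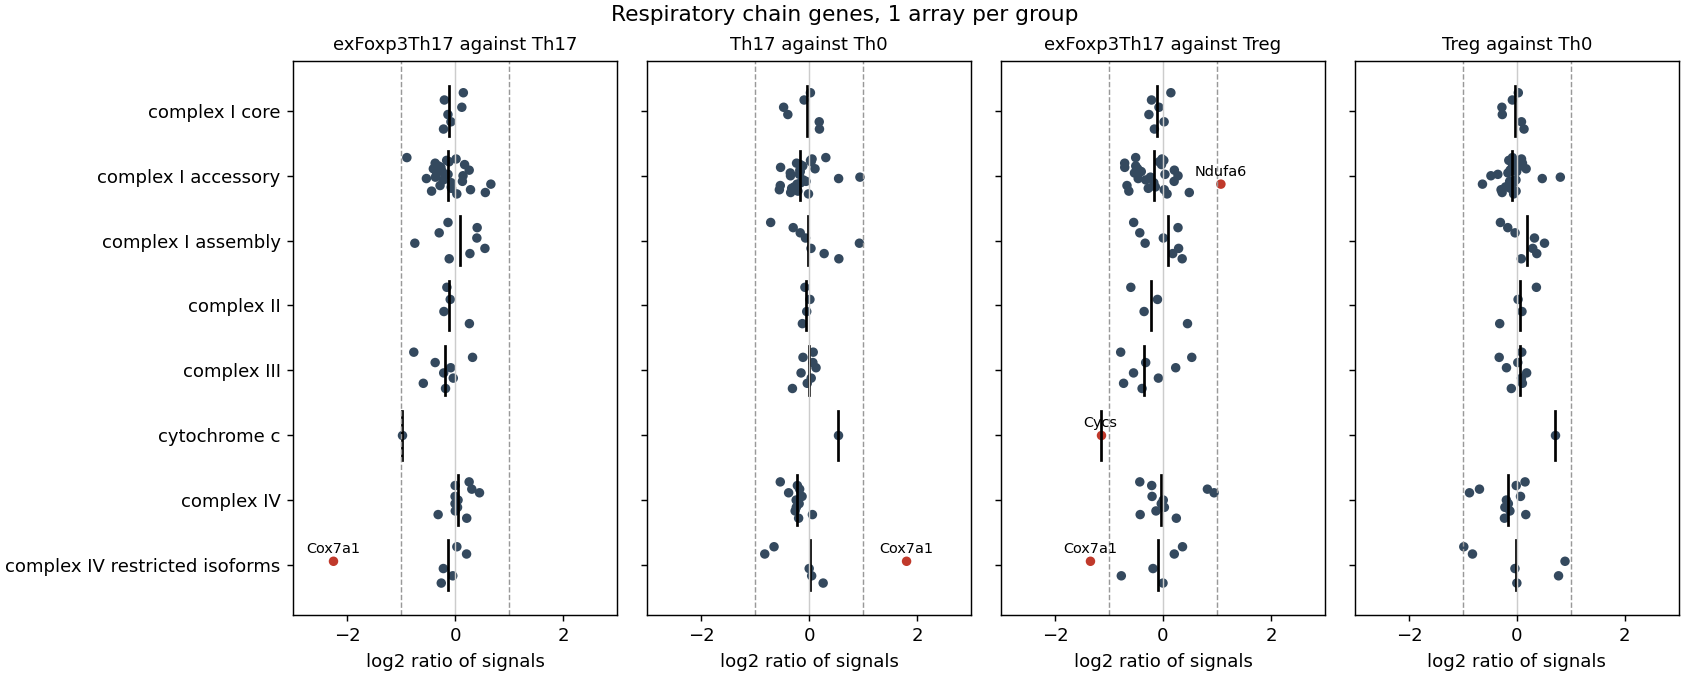
Log2 ratio of signals between 2 arrays (horizontal axis) for each of the 71 respiratory chain genes above the floor, arranged by complex (vertical axis), in 4 comparisons. Points are genes, red where called at 2-fold or more and named; black bars are medians and dashed lines mark 2-fold. Cox7a1 is called in 3 panels, Cycs and Ndufa6 only in exFoxp3Th17 against Treg, and none in Treg against Th0.

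The comparison of exFoxp3Th17 with Treg sets cells of Foxp3+ origin after Th17 conditions against those kept with IL-2, with the change of gate. It held the most differences both among the respiratory chain genes and among all genes, of which 21.2% were called at 2-fold. The median log2 ratio was -0.14 over the respiratory chain genes, against 0.02 over all genes, with 26 above 0 and 44 below. At 1.5-fold or more 3 genes were higher and 10 lower, against 22.5% and 18.3% of all genes. The median of complex III was -0.35, that of complex II -0.23, that of the complex I accessory subunits -0.17 and that of complex IV -0.03. Its exFoxp3Th17 array is also the one set against Th17, and its Treg array the one set against Th0.

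Th17 against Th0, which compares culture conditions and gates in cells of naive origin, gave a median of -0.13 over the respiratory chain genes and -0.02 over all genes, with 25 above 0 and 46 below. At 1.5-fold or more 3 were higher (Cox7a1, Ndufb1 and Ndufaf4) and 3 lower (Cox8b, Ndufaf8 and Cox8c), against 15.4% and 17.2% of all genes. Complex IV had the lowest median, -0.22, and complex III the nearest to 0, at 0.00. Treg against Th0 gave a median of -0.03, with 29 above 0 and 41 below. At 1.5-fold or more 4 were higher and 5 lower there, against 12% and 13.3% of all genes.

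Across the 4 arrays the exFoxp3Th17 array held the lowest signal for 36 of the 71 genes (50.7%), against 27.5% of all genes above the floor. Among bright genes the shares were 54.5% of the 55 respiratory chain genes and 33.6% of all 2547. The Th0 array held the highest for 25 (35.2%), against 27.6% of all genes, but with equal medians the Treg array led with 29 and Th0 had 23. The count of lowest signals for exFoxp3Th17 was 35 under quantile normalization and 37 with equal medians of probe sets above the floor, where all genes gave 29.4% and 29.1%.

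The other probe sets of the respiratory chain genes mostly repeated the values of the one used. For 35 of the genes there were 53 further probe sets that reached 4 times the floor on every array. In exFoxp3Th17 against Th17, 50 of the 53 lay within 0.5 of the log2 ratio of the probe set used, with a median absolute difference of 0.08, and the 3 others belonged to Cox6a1, Cox6c and Sdhd. The count was 51 in Th17 against Th0, 49 in exFoxp3Th17 against Treg and 52 in Treg against Th0.

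Other nuclear genes of mitochondrial energy metabolism were read on the same arrays, none of them encoded in mitochondrial DNA, for which no single-gene probe set was found. ATP synthase (17 genes whose symbols begin with Atp5) had none called in any of the 4 comparisons. Medians were -0.13 in exFoxp3Th17 against Th17, -0.25 in Th17 against Th0, -0.13 in exFoxp3Th17 against Treg and -0.09 in Treg against Th0. Of all genes, 10.5% to 21.2% were called, depending on the comparison. By the second brightest probe set 1 ATP synthase gene was lower in exFoxp3Th17 against Treg and 1 in Treg against Th0. The TCA cycle (12 genes above the floor) likewise had none called, with medians from -0.01 to 0.12. The TCA count depended on the setting: in exFoxp3Th17 against Treg 1 gene was lower under quantile normalization or equal medians, and by the second brightest probe set 2 were lower in Th17 against Th0 and 2 in Treg against Th0. Of 76 mitochondrial ribosomal protein genes, exFoxp3Th17 had 2 higher and 2 lower against Th17, and 1 higher and 5 lower against Treg. These are 5.26% and 7.89% of the list, against 14.8% and 21.2% of all genes. Averaging the probe sets of a gene gave 3 higher and 2 lower against Treg. Mrps5 had 812.3 in exFoxp3Th17, 247.0 in Th17, 124.3 in Treg and 185.0 in Th0, and its 4 other probe sets were also higher in exFoxp3Th17 (0.54 to 1.89 against Th17). Mrps6 had 949.8 in exFoxp3Th17, 362.1 in Th17, 484.1 in Treg and 224.9 in Th0. Mrpl33 had 255.6 in exFoxp3Th17, 606.3 in Th17, 691.2 in Treg and 818.8 in Th0. Mrps5 and Mrps6 were thus highest, and Mrpl33 lowest, in exFoxp3Th17.

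Among 27 assembly and maturation factors outside the symbol rule, exFoxp3Th17 had 3 higher and 1 lower against Th17, and 5 higher and none lower against Treg. These are 14.8% and 18.5% of the list, near the 14.8% and 21.2% of all genes called. Acad9, a complex I assembly factor related to acyl-CoA dehydrogenases, had 656.1 in exFoxp3Th17, 145.4 in Th17, 107.9 in Treg and 113.7 in Th0, so the exFoxp3Th17 array stood apart from 3 arrays of similar level. The ratio to Th17 was 4.51-fold, and its other bright probe set gave a log2 ratio of 2.21. Cox10, which makes heme O for complex IV, had 323.8 in exFoxp3Th17, 123.8 in Th17, 88.8 in Treg and 130.5 in Th0, with its other probe set at 1.94 against Th17. Tmem126b, a complex I assembly factor, was 2.19-fold higher in exFoxp3Th17 (45.8) than in Th17 (20.9). Sco2, a copper chaperone of complex IV, was 2.60-fold lower in exFoxp3Th17 (31.1) than in Th17 (80.9). These signals lie near the floor. With 4 times the floor no gene of this list was lower in exFoxp3Th17 than in Th17. Sdhaf1, which helps insert the iron-sulfur clusters of complex II, had 559.8 in exFoxp3Th17, 299.2 in Th17, 166.0 in Treg and 143.6 in Th0, and was called higher in exFoxp3Th17 than in Treg and in Th17 than in Th0. Sco1, a paralogue of Sco2, was called higher in Th17 (149.6) than in Th0 (38.3).

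Of 12 regulators of mitochondrial biogenesis above the floor, 4 were called lower in exFoxp3Th17 than in Th17 and none higher, where 7.27% of all genes were lower. The count was 2 with the floor as a pseudocount, with probe sets averaged, by the second brightest probe set and at 3-fold. Myc, a transcription factor of cell growth, had 222.2 in exFoxp3Th17, 986.1 in Th17, 527.3 in Treg and 566.9 in Th0. Pprc1, a coactivator of the PGC-1 family that responds to growth signals, had 45.1 in exFoxp3Th17, 171.6 in Th17, 130.1 in Treg and 102.3 in Th0. Both were lowest in exFoxp3Th17 and highest in Th17. Nrf1, which encodes NRF-1, had 51.7 in exFoxp3Th17, 103.8 in Th17, 106.7 in Treg and 93.1 in Th0, but its 3 other probe sets gave -0.33, 0.07 and 0.40 against Th17 where the brightest was 2.01-fold lower. Gabpb1, a subunit of GABP, was 2.15-fold lower than in Th17, and its other probe set gave -0.47. Tfam, which packages mitochondrial DNA, had 488.1 in exFoxp3Th17, 550.9 in Th17, 666.2 in Treg and 675.5 in Th0, and was not called.

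Glycolysis genes, a list that includes the transporters Slc2a1, Slc2a3 and Slc16a3, differed far more than those of the respiratory chain. Of 16 genes listed, 13 had a single-gene probe set, and Gapdh, Eno1 and Gpi1 had none. Of 13 above the floor, 11 were lower in exFoxp3Th17 than in Th17 and 10 lower than in Treg, where 7.27% and 9.94% of all genes were lower, with none higher and medians of -1.74 and -1.68, beside the medians of -0.08 and -0.14 for the respiratory chain. In Th17 against Th0, 4 were higher and none lower, where 8.22% of all genes were higher, with a median of 0.77 beside -0.13. The 4 were the glucose transporters Slc2a1 and Slc2a3 and the enzymes Hk2 and Pgam1, and the other 9 were not called. In Treg against Th0, 3 were higher and none lower, where 5.56% of all genes were higher, with a median of 0.52 beside -0.03.

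**Figure D4:**
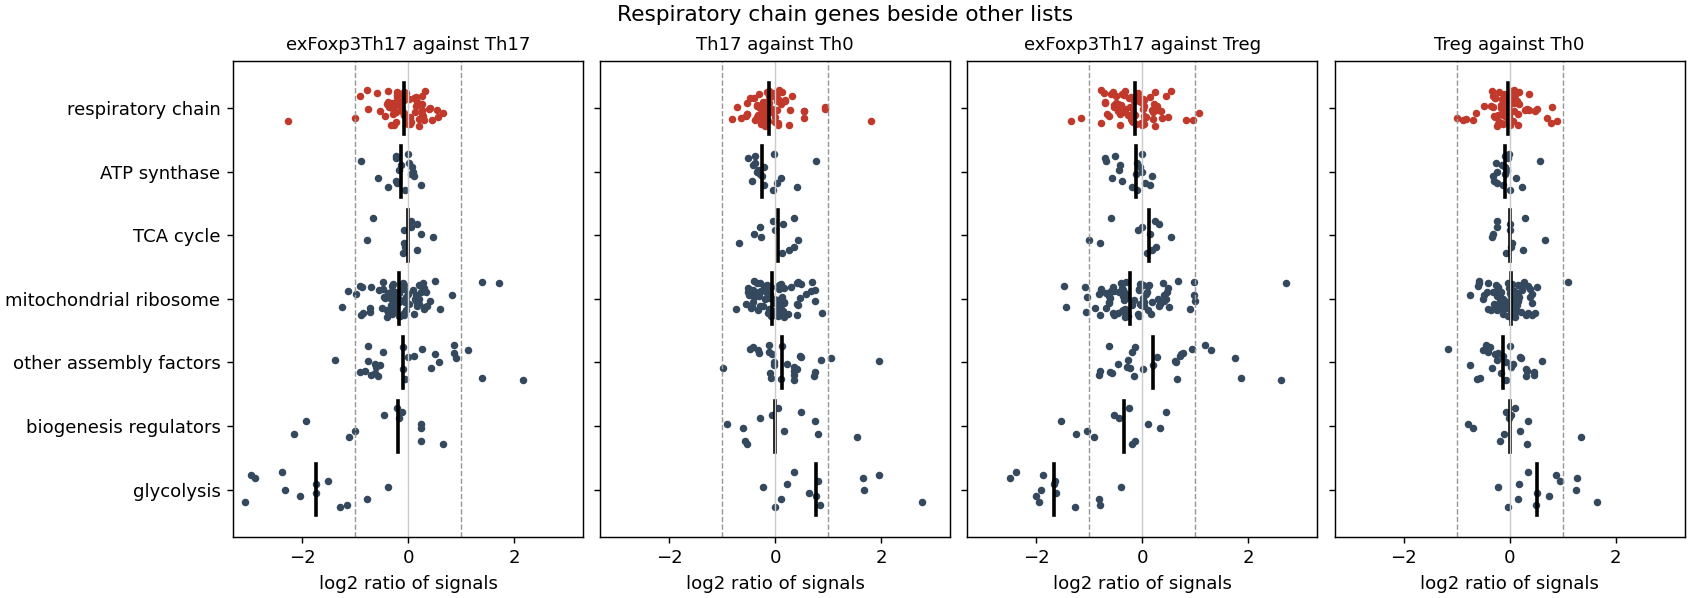
Log2 ratio of signals between 2 arrays (horizontal axis) for genes above the floor in 7 lists (vertical axis), in 4 comparisons; points are genes, black bars are medians and dashed lines mark 2-fold. The respiratory chain (red, 71 genes), ATP synthase and TCA cycle lists have medians between -0.25 and 0.12 in every panel, and glycolysis lies at -1.74 and -1.68 in the panels of exFoxp3Th17 against Th17 and Treg.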

How the data were processed

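Total RNA (1 µg per sample) of 4 sorted T cell populations was labelled with biotin and hybridised to Affymetrix arrays, per the labels' protocols. The authors deposited linear signal intensities, computed by MAS5 per the submitters' processing notes, which name no version. The mean intensity of each array, trimmed by 2% at either end, was 99.2 to 99.3, so the authors' scaling was kept. Each array is a single sample, so precision is limited by the number of arrays, and no test was run.

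Of 45101 probe sets, 64 are controls, 34945 have 1 gene symbol in the platform annotation, 932 have several and 9160 are unnamed here. Probe sets with several symbols named no gene, including 10 that list a gene of the respiratory chain. Symbols were updated by gene identifier through a RefSeq table (GRCm38.p6), which matched all 74 respiratory chain genes. Signals below the floor (12.1) were set to it before log2. The calling step was checked on simulated data with known folds, which cannot show how often a 2-fold call here would repeat. Ratios were computed with pandas 2.3.3 in Python 3.11.15.

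The respiratory chain genes and all lists were chosen with earlier results of these data known. The range of bright genes (32 times the floor, a signal of 387.3) and the motif TGACGTCA were added after the data were seen. Full values were given by rule for respiratory chain genes called in any comparison, the brightest and dimmest gene of each complex, restricted isoforms with their paralogues and X-linked genes. From the other lists the rule allowed up to 4 called genes per list and comparison, of which some are described, a few by their fold or by signals on some arrays. Ndufs7, Ndufv3, Ndufab1, Ndufc1, Ndufb4, Ndufb7, Ndufaf3, Ndufaf4, Sdha, Sdhd, Uqcrq, Uqcr11, Uqcrh, Cox7a2l, Ndufa4 and Tfam were added after their values were seen. Promoter windows are the 250 bases before the start in the RefSeq table, found for 60 of the 74 genes.

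Alternatives were quantile normalization, equal medians, other floors, a pseudocount, other probe sets and other fold thresholds.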

Additional observations from a re-analysis of the deposited data

Results flagged for a closer look

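Cox7a1 was called in opposite directions in 2 comparisons: the log2 ratio was -1.34 in exFoxp3Th17 against Treg and 1.80 in Th17 against Th0, each from 1 array per group. The call against Treg was lost with 2 times the floor (-0.95), with a pseudocount (-0.95) and with 4 times the floor (0), where Th17 against Th0 stood at 0.86. The difference between the comparisons was not tested, culture and gate differ within each, Xist and Y-linked signals differ in the first, and the signals of 18.4 to 87.9 are near the floor of 12.1.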

How the results depend on the processing

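No paired analysis was possible because each group has 1 array. Of the counts and medians over the respiratory chain genes under the alternatives, 93 moved little (counts by no more than 1.5 times) and 31 moved further. In exFoxp3Th17 against Th17, genes called lower numbered 0 with 4 times the floor or among bright genes, and 2 by the second brightest probe set. At 1.5-fold 1 was higher and 6 lower. In Th17 against Th0, genes called higher numbered 2 under quantile normalization and 0 with 4 times the floor or among bright genes, and 1 was lower with 0.5 times the floor. At 1.5-fold 3 were higher and 3 lower. In exFoxp3Th17 against Treg, genes called higher numbered 2 under quantile normalization or 0.5 times the floor and 0 with equal medians, which also moved the median to -0.25. Genes called lower numbered 1 with a pseudocount, with 2 or 4 times the floor, when probe sets of a gene were averaged, and among bright genes. At 1.5-fold 3 were higher and 10 lower, and at 3-fold 0 and 0. In Treg against Th0, 1 was higher under quantile normalization, with 0.5 times the floor and by the second brightest probe set, and 1 was lower with 0.5 times the floor and with the pseudocount. At 1.5-fold 4 were higher and 5 lower. The median in Treg against Th0 changed sign, from -0.03 as deposited to 0.02 with equal medians. The causes were not tested, apart from Cox7a1, whose signals lie within 4 times the floor on 3 of the 4 arrays. Signal over background limits the restricted isoforms, and 1 array per group limits every result.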
